A study of Homo sapiens with 6 samples.

Results

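Serglycin (SRGN), SPOCK1 and other core proteins of proteoglycans were followed in PANC1 cells and in their oxaliplatin-resistant subline. The 10 genes SRGN, SPOCK1, HSPG2, VCAN, SDC1, SDC2, SDC4, GPC1, GPC4 and GPC6 were taken by symbol from a table of read counts per gene, and all 10 were found among its 58735 rows. They were chosen by hand with the fold changes of PANC1OR over PANC1 in these libraries already known, so their values between the lines are given as a description and without a test. RNA was sequenced from 3 cultures of PANC1, an established human line from a pancreatic duct carcinoma that was left untreated, and from 3 cultures of PANC1OR, a subline raised from PANC1 by passaging it in more and more oxaliplatin, a platinum compound that damages DNA, until it grew stably without drug. PANC1OR is 1 resistant line, so the spread between libraries is that between cultures of a line and not between separately derived resistant lines. The labels name no engineered change in either group and do not say whether the harvested PANC1OR cultures held drug. Both groups were grown in DMEM with fetal bovine serum.

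A proteoglycan is a core protein that carries long sulfated sugar chains, either heparan sulfate or chondroitin and dermatan sulfate, attached to serines that are followed by glycine. Syndecans span the plasma membrane and glypicans are held on it by a lipid anchor, and both present growth factors to their receptors through their chains. Perlecan, versican, testicans and serglycin are released into the matrix or stored in granules. In the pancreas these chains and cores are known mainly from the stroma and basement membrane of ductal carcinoma, and GPC1 and SDC1 are known as surface proteins of the carcinoma cells.

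Library totals ran from 10199268 to 26394388 reads assigned to genes. Levels are given as CPM, a gene's reads per 1000000 of the library's reads, with library totals adjusted by the trimmed mean of M values (TMM). PANC1OR replicate 3 stood apart from replicates 1 and 2, with an SD of log2 differences over genes of 0.87 and 0.90, against 0.18 between those 2. Its difference followed GC content: the median over tested genes was 1.34 on the log2 scale for transcripts of at least 60% GC and -0.97 for those under 40%. PANC1 replicate 2 differed from replicates 1 and 3 in the same sense, by 0.35 and -0.25. Among the core genes GPC1 (66.7% GC), HSPG2 (64.5%) and SDC1 (60.1%) were 1.64, 1.57 and 1.09 higher on the log2 scale in PANC1OR replicate 3 than in the mean of replicates 1 and 2. SRGN (38.0% GC) and SPOCK1 (44.2%) had differences of -0.35 and -0.33. Results for the 3 GC-rich cores are therefore given with and without that library.

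**Figure D1:**
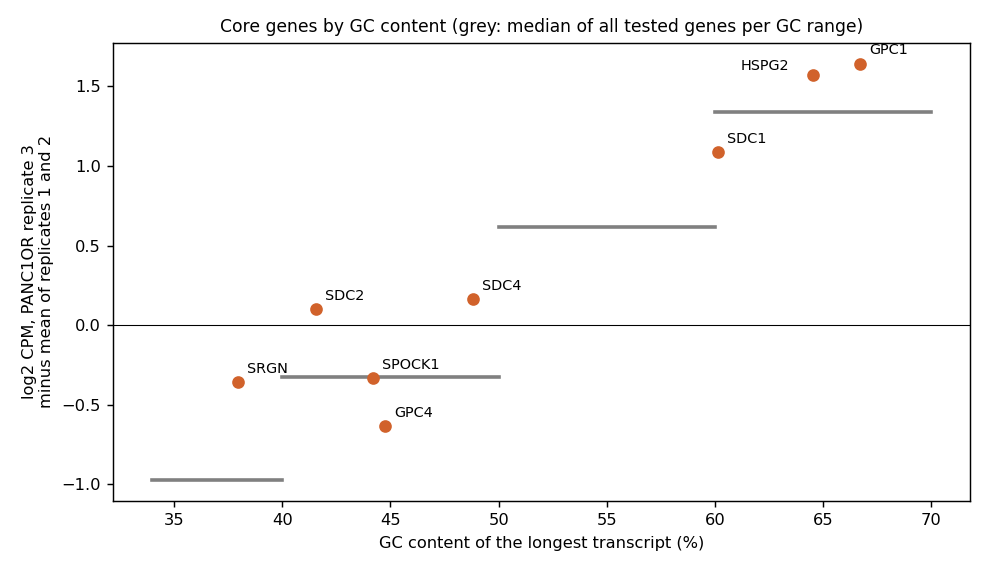
Difference of log2 CPM between PANC1OR replicate 3 and the mean of replicates 1 and 2 (vertical axis) against GC content of the longest transcript in percent (horizontal axis). Points are 8 core genes, and grey lines are medians of all tested genes in 4 ranges of GC content, the outer ranges being drawn cut off. GPC1, HSPG2 and SDC1 lie high at the right, at 1.64, 1.57 and 1.09. GPC6, with 2 reads in PANC1OR, and VCAN, which was not tested, are left out.

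Among the secreted cores, SRGN and SPOCK1 had far higher levels in PANC1OR. SRGN encodes serglycin, a small core protein known from secretory granules of blood cells and endothelium. It had 2, 0 and 1 reads in PANC1 replicates 1 to 3 and 1087, 732 and 408 reads in PANC1OR replicates 1 to 3. As CPM this was 0.125, 0 and 0.0612 against 40.6, 45.7 and 33.7, so that the lowest resistant culture was far above the highest parental one. Over the groups, 3 reads stood against 2227, a ratio of 568 after scaling to the TMM-adjusted library totals, with an exact (Clopper-Pearson) 95% counting interval of 194 to 2756. That interval covers counting error only.

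SPOCK1 encodes testican-1, a calcium-binding matrix proteoglycan. Its level was 1.06, 1.15 and 0.917 CPM in PANC1 and 129.5, 121 and 99.4 CPM in PANC1OR. The means were 1.04 ± 0.117 and 117 ± 15.6 CPM (SD, n = 3), a log2 fold change of 6.81 ± 0.25 (SE). All 3 resistant cultures lay close together and the lines did not overlap. SRGN (ENSG00000122862) lies on chromosome 10 at 69088103 to 69104805 and SPOCK1 (ENSG00000152377) on chromosome 5 at 136975298 to 137598379 of GRCh38. A short non-coding RNA gene inside SRGN had 0 reads in PANC1 and 8 in PANC1OR, and GENCODE release 44 has no other gene overlapping either one.

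HSPG2 encodes perlecan, the large heparan sulfate proteoglycan of basement membranes. It stood at 189, 154 and 197 CPM in PANC1 and at 85.0, 67.6 and 225 CPM in PANC1OR. Replicates 1 and 2 of PANC1OR were below every PANC1 library, and replicate 3 was above them all. The log2 fold change was -0.51 ± 0.42 with 6 libraries and -1.25 without PANC1OR replicate 3. VCAN encodes versican, a large chondroitin sulfate proteoglycan that binds hyaluronan. It was almost unread in both lines, with 4, 1 and 2 reads in PANC1 and 1, 0 and 4 in PANC1OR, and it did not pass the filter on low counts.

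**Figure D2:**
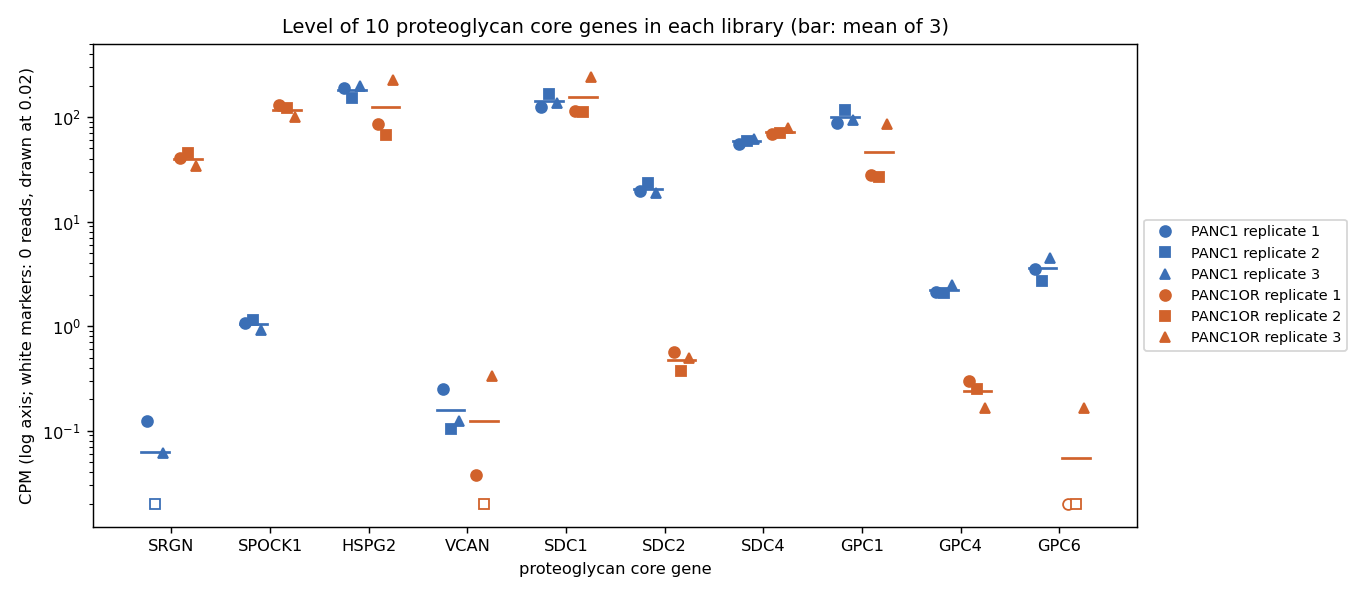
CPM on a log axis (vertical) for the 10 core genes (horizontal) in each PANC1 (blue) and PANC1OR (orange) library, where the marker shape gives the replicate, bars are means of 3 libraries and white markers are libraries with 0 reads. SRGN and SPOCK1 stand at 33.7 to 45.7 and 99.4 to 129.5 CPM in PANC1OR, while SDC2 stands at 0.375 to 0.561 CPM there and GPC4 and GPC6 lower still.

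Of the 3 core syndecans, SDC2 was nearly lost in PANC1OR while SDC1 and SDC4 were kept. SDC2 encodes syndecan-2, the syndecan known from mesenchymal cells. It was read at 19.5, 23.3 and 18.7 CPM in PANC1 and at 0.561, 0.375 and 0.495 CPM in PANC1OR. The log2 fold change was -5.38 ± 0.29 (SE), and its values under all the alternatives lay between -5.56 and -5.24.

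SDC1 encodes syndecan-1, the syndecan of epithelia. It stood at 124, 166 and 137 CPM in PANC1 and at 113, 113 and 240.0 CPM in PANC1OR, so the lines overlapped through replicate 3. Its log2 fold change was 0.13 ± 0.32 with 6 libraries and -0.34 without PANC1OR replicate 3, a change of sign. SDC4 encodes syndecan-4, a component of focal adhesions. It stood at 54.6, 59.3 and 62.1 CPM in PANC1 and at 69.3, 70.2 and 78.3 CPM in PANC1OR. Its resistant libraries were all above the parental ones by a small margin (log2 fold change 0.31 ± 0.17). SDC3, the remaining syndecan gene, belongs to the list of further core proteins and was named after its values were seen. It stood at 77.1, 86.5 and 79.8 CPM in PANC1 and at 36.6, 35.7 and 67.1 CPM in PANC1OR, all below the parental libraries (-0.81 ± 0.27, adjusted p = 0.0834 by edgeR's quasi-likelihood test, and 9.21e-05 without PANC1OR replicate 3).

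The 3 core glypicans had lower levels in PANC1OR. GPC6 was read 56, 26 and 74 times in PANC1 and 0, 0 and 2 times in PANC1OR. The 156 reads against 2 gave a ratio of 102 after the same scaling, with a 95% counting interval of 27.8 to 849. GPC4 had 34, 20 and 40 reads in PANC1 and 8, 4 and 2 in PANC1OR. Its levels were 2.22 ± 0.199 and 0.238 ± 0.0677 CPM (SD, n = 3), a log2 fold change of -3.11 ± 0.35.

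GPC1 was the most abundant glypican, at 88.0, 118 and 94.7 CPM in PANC1 and 28.0, 26.5 and 85.2 CPM in PANC1OR. Its highest resistant library, replicate 3, was just under the lowest parental one. The log2 fold change was -1.11 ± 0.45 with 6 libraries and -1.89 without PANC1OR replicate 3. GPC3 and GPC5, glypican genes beside GPC4 and GPC6, had means of 0.137 and 0.0208 CPM in PANC1 and 0 reads in PANC1OR, and neither was tested. GPC2, another glypican gene, went the other way, from 1.54 ± 0.767 to 4.23 ± 1.35 CPM, and is described below with the further core proteins. The antisense gene GPC1-AS1 was read 119 times in PANC1 and 60 in PANC1OR, and its reads cannot be told apart from those of GPC1 because no source here states whether counting used strand. The overlapping genes of GPC6 that the table holds had at most 10 reads each in PANC1 and 0 in PANC1OR.

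Promoter sequences from RefSeq (GRCh38.p14, the same build as the reads) were at hand for 7 of the 10 genes, all but SRGN, SPOCK1 and SDC2. The 250 bases before the start are shown for GPC4 and GPC6, the lowest in PANC1OR of the 3 core glypicans, and for SDC4, whose resistant libraries all lay above the parental ones. They are written 5′ to 3′ on the gene's strand with CpG dinucleotides in capitals. GPC4 is at chrX:133415490-133415739 (minus strand), GPC6 at chr13:93226557-93226806 (plus strand) and SDC4 at chr20:45348425-45348674 (minus strand).
GPC4: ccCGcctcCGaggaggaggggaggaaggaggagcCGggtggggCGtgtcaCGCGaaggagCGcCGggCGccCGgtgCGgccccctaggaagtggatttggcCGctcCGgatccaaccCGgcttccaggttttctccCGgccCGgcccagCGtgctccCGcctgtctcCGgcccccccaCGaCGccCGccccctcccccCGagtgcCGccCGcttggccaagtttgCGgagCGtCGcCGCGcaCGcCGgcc
GPC6: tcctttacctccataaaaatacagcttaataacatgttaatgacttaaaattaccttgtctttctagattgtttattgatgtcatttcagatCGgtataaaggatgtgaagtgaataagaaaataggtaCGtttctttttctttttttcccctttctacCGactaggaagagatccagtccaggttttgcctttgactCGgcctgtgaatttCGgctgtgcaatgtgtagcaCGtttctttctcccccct
SDC4: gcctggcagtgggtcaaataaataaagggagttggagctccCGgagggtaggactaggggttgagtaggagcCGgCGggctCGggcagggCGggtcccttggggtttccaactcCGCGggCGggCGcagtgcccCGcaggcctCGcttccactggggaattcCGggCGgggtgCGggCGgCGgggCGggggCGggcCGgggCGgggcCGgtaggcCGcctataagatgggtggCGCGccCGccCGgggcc

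GPC4 and GPC6 had unlike promoters although both had low levels in PANC1OR. The GPC4 sequence held 32 CpGs at 76.0% GC and 2 matches to GGGCGG, and that of GPC6 held 6 CpGs at 37.6% GC and none. SDC4 held 26 CpGs and 8 matches. Over 35116 RefSeq promoters of this length the median was 11 CpGs, with quartiles of 3 and 23, and 42.6% held GGGCGG on either strand. GPC6 had 1 match to TATAAA, with its first base 155 bases before the start, a motif held by 10.7% of promoters on either strand. GPC1 and HSPG2 held 36 and 33 CpGs and VCAN 12. Neither TGANTCA nor TGACGT, held by 6.57% and 7.10% of promoters, was found on either strand in the windows of the 7 genes.

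In counts, edgeR's quasi-likelihood test with Benjamini-Hochberg adjustment called 17.8% of 18751 tested genes, 10.3% higher and 7.50% lower in PANC1OR. Of the 10 core genes 9 were tested: 2 (SRGN and SPOCK1) were called higher, 3 (SDC2, GPC4 and GPC6) lower, and SDC1, SDC4, GPC1 and HSPG2 were not called. Because the genes were chosen with this contrast known, nothing is read from that share. The libraries of the lines did not overlap for 7 of the 9, 3 with PANC1OR above and 4 below, where 18.9% of all tested genes had PANC1OR above and 17.6% below. Without PANC1OR replicate 3, GPC1 and HSPG2 were also called lower, and the background was then 44.1% of genes, 22.1% higher and 22.0% lower. The median log2 fold change of the 9 genes was -0.51, the value of HSPG2, beside 0.04 over all tested genes. It was -1.25 beside -0.02 without PANC1OR replicate 3, and -0.22 beside 0.02 without PANC1OR replicate 2, and nothing is read from it.

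**Figure D3:**
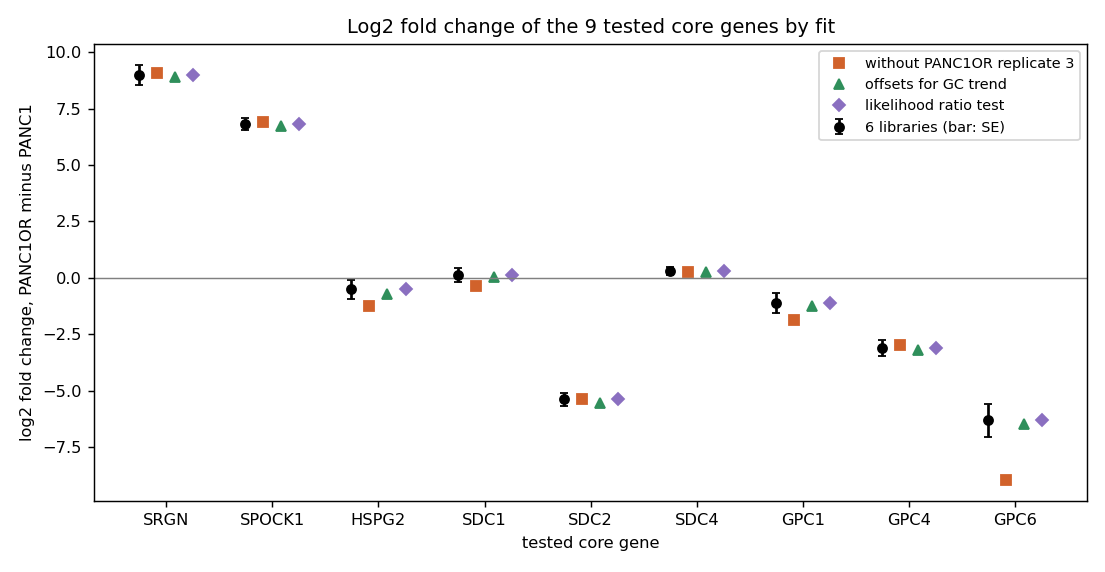
Log2 fold change of PANC1OR over PANC1 (vertical axis) for the 9 tested core genes (horizontal axis) in the fit of 6 libraries, with its SE as a bar, and in 3 alternative fits. SRGN, SPOCK1, SDC2 and GPC4 barely differ between fits, SDC1 lies at 0.13 or -0.34 depending on PANC1OR replicate 3, and the values of SRGN and GPC6 rest on 3 and 2 reads in the lower line.

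Per length of exon, the make-up of the 10 core transcripts differed between the lines. Levels are given here as RPKM, the CPM divided by the exon length in kilobases, which allows genes to be compared. In PANC1 the order was SDC1 at 39.4 ± 5.98, SDC4 at 22.5 ± 1.45, GPC1 at 15.4 ± 2.41, HSPG2 at 9.92 ± 1.27 and SDC2 at 5.02 ± 0.600 RPKM (SD, n = 3), with no overlap between neighbours. GPC6 and GPC4 followed at 0.502 and 0.447 and overlapped each other, and SPOCK1, SRGN and VCAN were lowest.

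In PANC1OR the order of the means was SDC1 at 43.0 ± 20.3, SRGN at 32.9 ± 4.96, SDC4 at 27.8 ± 1.89 and SPOCK1 at 18.8 ± 2.51 RPKM. SDC1 and SRGN overlapped, as did SRGN and SDC4. SDC1 was at 31.4, 31.2 and 66.4 RPKM in PANC1OR replicates 1 to 3 and SRGN at 33.4, 37.6 and 27.7, so SDC1 came first through replicate 3 and SRGN was higher in replicates 1 and 2. GPC1 (7.14 ± 5.13) and HSPG2 (6.95 ± 4.77) came next and overlapped. GPC1 was at 4.29, 4.07 and 13.1 RPKM by replicate and HSPG2 at 4.69, 3.73 and 12.4, so both means rest largely on replicate 3. SDC2 (0.117), GPC4, VCAN and GPC6 were lowest. The sum over the 10 genes was 93.3 ± 8.43 RPKM in PANC1 and 137 ± 25.2 in PANC1OR.

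SRGN and SPOCK1 together made up 0.239 ± 0.0730% of that sum in PANC1 and 39.2 ± 11.1% in PANC1OR. Their share was 44.7% and 46.4% in replicates 1 and 2 of PANC1OR and 26.4% in replicate 3, where the GC-rich SDC1, GPC1 and HSPG2 read higher. Syndecans and glypicans together made up 89.0 ± 2.19% of the sum in PANC1 and 56.0 ± 8.74% in PANC1OR, and glypicans alone 17.4 ± 0.953% and 4.95 ± 2.57%. In summed RPKM these surface cores were at 74.3, 93.2 and 81.95 in PANC1 and at 62.4, 62.3 and 109.6 in PANC1OR, where replicates 1 and 2 were below every PANC1 library and replicate 3 above them all. The 4 secreted cores were at 10.1 ± 1.29 and 58.7 ± 2.36. In bulk RNA a change in the number of expressing cells cannot be told apart from a change in RNA per cell.

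**Figure D4:**
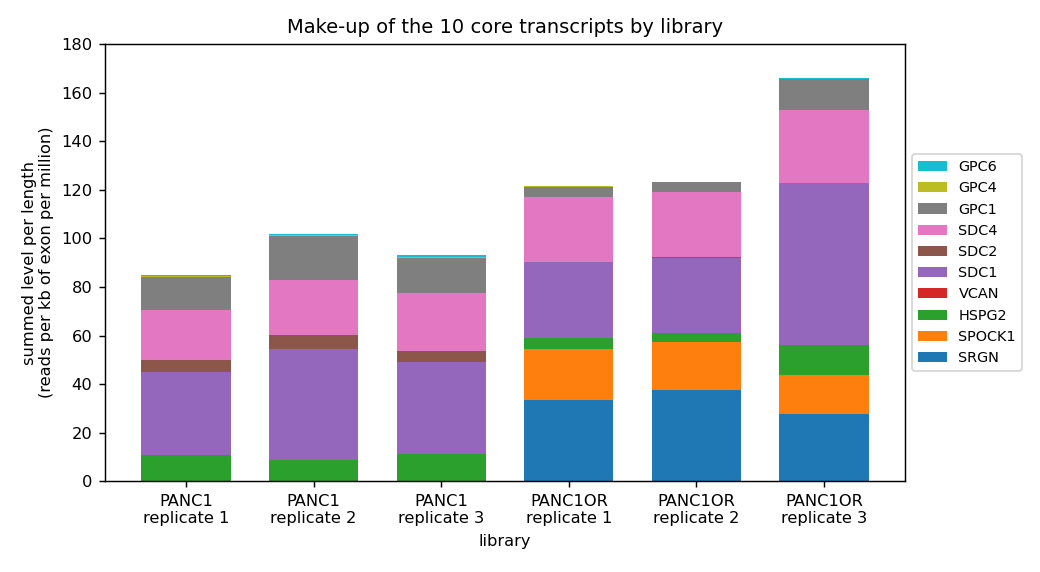
Summed level of the 10 core genes per library in RPKM (vertical axis), stacked by gene. SRGN and SPOCK1 form the lower part of the 3 PANC1OR bars and are not visible in the PANC1 bars, and PANC1OR replicate 3 has the tallest bar, mainly through SDC1.

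The other genes of proteoglycan biology were read from 8 lists, of which 90 genes were tested. Of these 18 were called higher and 17 lower, and 55 were not called. The calls were 38.9% of the tested genes, beside 17.8% of all. The lists were chosen with earlier results of these data known, so nothing is read from such shares. The median log2 fold change was 0.09, beside 0.04 over all tested genes. Without PANC1OR replicate 3, 24 were called higher and 36 lower, 66.7% of the 90, beside 44.1% of all genes in that fit. The median was then -0.19, beside -0.02 over all tested genes, and the medians of the chondroitin (-0.18), turnover (-0.13) and syndecan partner (-0.01) lists also turned negative. Adjusted p-values are from edgeR's quasi-likelihood test over all genes, levels with ± are mean and SD of 3 libraries, and values in brackets with ± are log2 fold change and SE.

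**Figure D5:**
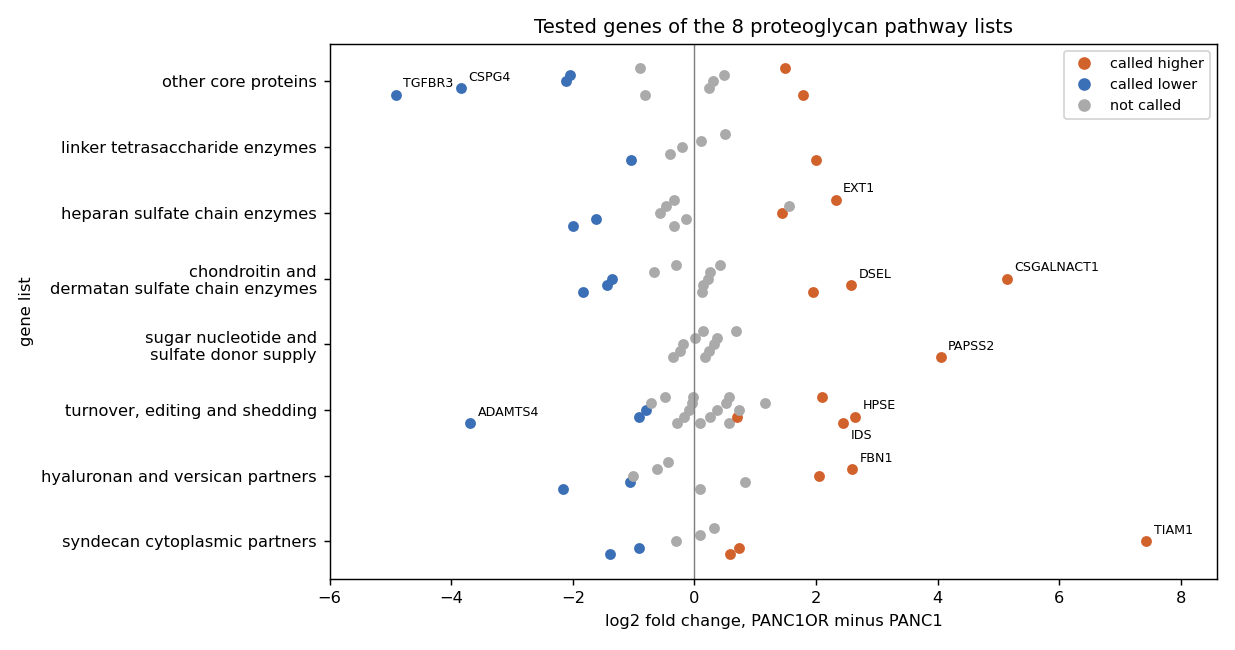
Log2 fold change of PANC1OR over PANC1 (horizontal axis) for each tested gene of 8 lists (vertical axis, spread within a list for visibility), coloured by whether it was called. Each list has grey points near 0, and TIAM1, CSGALNACT1 and PAPSS2 lie farthest to the right.

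Among further core proteins 4 were called lower and 2 higher, of 11 tested and 24 listed genes (7 and 2 without PANC1OR replicate 3), and their median log2 fold change was -0.81. TGFBR3, which encodes betaglycan, a co-receptor of TGF-beta, fell from 38.7, 31.9 and 35.04 CPM to 1.42, 1.31 and 0.661 (log2 fold change -4.91 ± 0.32, adjusted p = 5.6e-05). CSPG4, which encodes the membrane proteoglycan NG2, fell from 56.5, 55.98 and 61.5 CPM to 2.73, 2.50 and 7.18 (-3.84 ± 0.43, adjusted p = 0.000601). In both genes the lines were far apart, and PANC1OR replicate 3 deviated down for the first and up for the second.

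SPOCK2, the testican-2 gene and a paralog of SPOCK1, fell from 12.3 ± 1.66 to 2.90 ± 1.57 CPM (-2.11 ± 0.38, adjusted p = 0.00596). CSPG5, a brain chondroitin sulfate proteoglycan gene, rose from 2.92 ± 0.469 to 10.1 ± 3.01 CPM (1.79 ± 0.29, adjusted p = 0.00411). The calls were completed by GPC2, a glypican gene (rose by 1.49 ± 0.41), and BCAN, which encodes brevican (-2.04 ± 0.46), both named after their values were seen. The adjusted p of GPC2 was 0.0401 and became 0.0527 to 0.171 when PANC1 replicate 1 or 3 or 1 of the first 2 PANC1OR replicates was left out. That of BCAN was 0.0185 and became 0.0512 to 0.0891 without the same libraries. COL18A1, a basement membrane collagen that carries heparan sulfate, had the highest level per length of the list, at 99.8 RPKM in PANC1. It was at 831, 838 and 866 CPM in PANC1 and at 269.7, 262 and 830.2 CPM in PANC1OR (adjusted p = 0.213, and 1.87e-05 without PANC1OR replicate 3).

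Genes that build the chains were called in both directions at successive steps. All chains start with a short sugar linker on the core. Of 6 tested linker genes 1 was called higher and 1 lower (1 and 3 without PANC1OR replicate 3), with a median of -0.05. PXYLP1, a phosphatase that removes a phosphate from the linker xylose, rose from 3.24, 3.66 and 3.24 CPM to 14.1, 14.1 and 12.4 (2.004 ± 0.22, adjusted p = 0.000527). B3GALT6, a linker galactosyltransferase, fell from 63.5 ± 7.55 to 30.8 ± 11.9 CPM (-1.05 ± 0.28, adjusted p = 0.038), and its adjusted p was 0.095 to 0.131 when any 1 library other than PANC1OR replicate 3 was left out. FAM20B, the linker xylose kinase and the highest of the list per length over both lines, was at 122 ± 2.01 and 106 ± 20.8 CPM (adjusted p = 0.558).

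For heparan sulfate, 10 of 21 listed genes were tested, 2 were called higher and 2 lower (2 and 6 without PANC1OR replicate 3), with a median of -0.34. EXT1, a subunit of the chain polymerase, rose from 26.5, 24.3 and 28.4 CPM to 129.8, 131 and 136 (2.32 ± 0.17, adjusted p = 9.3e-05), with the 3 libraries of each line close together. GLCE, the epimerase that makes iduronate, fell from 50.3 ± 6.23 to 12.5 ± 4.01 CPM (-1.999 ± 0.29, adjusted p = 0.00216).

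EXTL2, a transferase that acts on the linker, rose (1.44 ± 0.30, adjusted p = 0.0119), with an adjusted p of 0.0584 to 0.0654 without any 1 PANC1 library. HS6ST1, a 6-O-sulfotransferase, fell (-1.61 ± 0.34, adjusted p = 0.0127, and 0.0597 without PANC1 replicate 2). HS2ST1, a 2-O-sulfotransferase and the highest of the list per length over both lines, was at 128 ± 25.99 and 102 ± 44.7 CPM (adjusted p = 0.597).

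For chondroitin and dermatan sulfate, 13 of 16 listed genes were tested, 3 were called higher and 3 lower (4 and 5 without PANC1OR replicate 3), with a median of 0.14. CSGALNACT1, which starts a chondroitin chain on the linker, rose from 2.61, 0.940 and 2.32 CPM to 78.5, 74.2 and 62.5 (5.15 ± 0.37, adjusted p = 7.6e-05). Its paralog CSGALNACT2, the highest of the list per length over both lines, was at 60.3 ± 7.13 and 70.4 ± 18.97 CPM (adjusted p = 0.608, and 0.0268 without PANC1OR replicate 3). DSEL, related to the epimerase of dermatan sulfate, rose from 19.8, 18.1 and 20.1 CPM to 138, 136 and 71.8 (2.58 ± 0.28, adjusted p = 0.000581).

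CHSY1, a chondroitin synthase, fell from 116 ± 11.3 to 45.1 ± 1.22 CPM (-1.36 ± 0.17, adjusted p = 0.0012). CHST3, a chondroitin 6-O-sulfotransferase, fell from 147 ± 5.76 to 41.3 ± 13.6 CPM (-1.84 ± 0.25, adjusted p = 0.0017). The calls were completed by CHPF, a polymerizing factor (1.96 ± 0.54, adjusted p = 0.0417), and CHST11, a 4-O-sulfotransferase (-1.44 ± 0.39, adjusted p = 0.0372), named after their values were seen. CHPF stood at 9.31, 8.99 and 32.1 CPM in PANC1OR, replicate 3 being far above the others, and its adjusted p was 0.0911 to 0.162 without any 1 PANC1 library. That of CHST11 was 0.0842 to 0.165 when any 1 library other than PANC1OR replicate 3 was left out.

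The supply of sugars and sulfate had 1 call among 11 tested genes (4 higher and 1 lower without PANC1OR replicate 3), with a median of 0.18. PAPSS2, which makes the sulfate donor PAPS, rose from 6.04, 7.10 and 7.28 CPM to 115, 122 and 101.2 (4.05 ± 0.21, adjusted p = 2.15e-05). UGDH, which makes UDP-glucuronate and was the highest of the list per length, was at 196 ± 13.6 and 166 ± 23.4 CPM (adjusted p = 0.438).

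Among 22 tested genes of turnover, editing and shedding 4 were called higher and 3 lower (5 and 8 without PANC1OR replicate 3), with a median of 0.17. HPSE encodes heparanase, which cleaves heparan sulfate chains, and rose from 1.74, 2.30 and 2.75 CPM to 15.1, 15.4 and 11.97 (2.64 ± 0.27, adjusted p = 0.000386). IDS, a lysosomal sulfatase of heparan and dermatan sulfate, rose from 61.8 ± 9.84 to 337 ± 73.6 CPM (2.45 ± 0.24, adjusted p = 0.000303). ADAMTS1 rose (2.09 ± 0.31, adjusted p = 0.00239) and ADAMTS4 fell (-3.68 ± 0.39, adjusted p = 0.000485), both proteases that cut versican.

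ARSB, a lysosomal sulfatase of dermatan sulfate, fell (-0.91 ± 0.18, adjusted p = 0.0113) and was named after its values were seen. Its call was lost, at 0.0603 to 0.0657, on leaving out PANC1 replicate 1 or 3 or 1 of the first 2 PANC1OR replicates.

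Hyaluronan and versican partners had 2 higher and 2 lower calls among 9 tested genes (3 and 4 without PANC1OR replicate 3), with a median of -0.44. HAS3, a hyaluronan synthase, rose from 37.2, 37.6 and 38.7 CPM to 144, 127 and 199 (2.05 ± 0.22, adjusted p = 0.000485). CD44, the hyaluronan receptor and the highest of the list per length, fell from 3330.2, 3107 and 3319 CPM to 1703, 1656 and 1340.1 (-1.05 ± 0.18, adjusted p = 0.0053). CEMIP, a hyaluronan-degrading protein, fell (-2.16 ± 0.34, adjusted p = 0.00336) and FBN1, which encodes fibrillin-1, rose (2.60 ± 0.33, adjusted p = 0.00117).

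Of 8 tested genes for proteins that bind syndecan tails or act with those that do, 3 were called higher and 2 lower, with a median of 0.21. These numbers were the same without PANC1OR replicate 3, and 1 and 0 without PANC1 replicate 1 or 3. Over all tested genes the share called went from 17.8% to 44.1% without PANC1OR replicate 3. It was 9.86% and 9.31% without PANC1 replicate 1 and 3. TIAM1, an exchange factor for RAC1, rose from 0.311, 0.104 and 0.306 CPM to 46.2, 42.9 and 48.4 (7.43 ± 0.34, adjusted p = 1.48e-05). CASK, a scaffold with a PDZ domain, fell (-0.92 ± 0.18, adjusted p = 0.0104, and 0.0562 and 0.0661 without PANC1 replicate 1 and 3). SYNPO, an actin-binding protein, fell (-1.39 ± 0.32, adjusted p = 0.0202). PDCD6IP, the syntenin partner ALIX, and PRKCA, a kinase bound by syndecan-4 and the highest of the list per length, rose by 0.74 ± 0.21 (adjusted p = 0.0456) and 0.59 ± 0.17 (adjusted p = 0.0476). The calls of SYNPO, PDCD6IP and PRKCA were each lost when any 1 library other than PANC1OR replicate 3 was left out, with adjusted p of 0.0512 to 0.179.

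The 2 nearest tested protein-coding genes on each side of the 10 genes, 40 in all, were read after the core values had been seen, and 5 were called higher and 3 lower, beside the 17.8% called among all tested genes. Beside SRGN, KIFBP and VPS26A, 44.6 and 18.7 kb away, had log2 fold changes of 0.02 ± 0.20 and -0.07 ± 0.34 (adjusted p = 0.969 and 0.925). Beside SPOCK1, KLHL3, 19.1 kb away, was called higher (1.01 ± 0.29, adjusted p = 0.0447), and TGFBI, SMAD5 and HNRNPA0 were not called. Both neighbours of SDC2 at higher coordinates were called lower, CPQ at 33.5 kb (-0.86 ± 0.21, adjusted p = 0.0248) and TSPYL5 at 662 kb (-2.82 ± 0.19, adjusted p = 6.34e-05). Those at lower coordinates, MTERF3 and PTDSS1, were not called (adjusted p = 0.436 and 0.0819). Called neighbours also lay beside core genes that were not called. These were MATN3 (1.77 ± 0.22) and RHOB (-1.64 ± 0.38) beside SDC1, and STK4 (0.93 ± 0.18) and TP53TG5 (1.21 ± 0.33) beside SDC4. EDIL3, the nearest tested protein-coding gene at higher coordinates than VCAN, 358 kb away, rose from 0.530 ± 0.130 to 102 ± 30.8 CPM (7.53 ± 0.38, adjusted p = 2.15e-05), while VCAN itself had 7 and 5 reads in the lines.

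The genes most like SPOCK1 over the 6 libraries, by the root mean square difference of log2 CPM, were SLC8A1 (0.376), SGIP1 (0.456), EREG (0.482), CD69 (0.502) and ST3GAL5 (0.551). Those most like SRGN were farther from it: TMEM233 (1.14), FAM83B (1.19), PELI2 (1.201), the non-coding MSC-AS1 (1.26) and TIAM1 (1.27). Each of these genes was low in PANC1 and high in PANC1OR, and the 6 libraries hold only 2 lines. SRGN had only 2, 0 and 1 reads in PANC1, against 17, 11 and 15 for SPOCK1. Its log2 levels there are therefore uncertain, and nothing is read from its larger distances.

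The 7 leukocyte and 6 endothelial markers that were listed had low levels in both lines. CD69, named above among the genes most like SPOCK1, was not on these lists and rose from 0.808 ± 0.173 to 91.2 ± 35.7 CPM. SRGN is known from blood cells and endothelium. Most of the summed level of the 7 leukocyte markers came from CORO1A. The sum was 2.61 to 3.24 CPM in PANC1 and 3.21, 3.18 and 7.10 CPM in PANC1OR replicates 1 to 3. PTPRC, which defines leukocytes, had 2 reads in PANC1 and 17 in PANC1OR, and CD48 had 0 in both. The 6 endothelial markers summed to at most 0.940 CPM in any library, and none was tested. Of 7 fibroblast markers THY1 fell, and DCN and LUM were under 0.05 CPM on average in each line. COL1A1 made up most of their summed level. That sum was 115 to 126 CPM in PANC1 and 127.6, 121 and 309 CPM in PANC1OR replicates 1 to 3. In both marker sets the high value was that of PANC1OR replicate 3, the library that stood apart by GC content. Of 6 epithelial markers 0 were called higher and 2, KRT19 and CDH1, were called lower, while KRT8 stood at 484 and 429 CPM. The epithelial sum was 845, 1731 and 954 CPM in PANC1 replicates 1 to 3 and 553, 580 and 1216 CPM in PANC1OR replicates 1 to 3. PANC1OR replicates 1 and 2 were thus below every PANC1 library. The highest libraries of each line were PANC1 replicate 2 and PANC1OR replicate 3, the ones that differed by GC content. The part of these marker levels in the results was not tested.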

How the data were processed

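RNA of 3 PANC1 and 3 PANC1OR cultures was sequenced, 1 library each. The authors deposited 1 table of raw counts, whole numbers of reads for each gene. Per the labels and the series design text, reads were inspected with FastQC 0.11.5, trimmed through Trim Galore 0.4.2, aligned by STAR 2.5 (GRCh38), and assigned to genes by featureCounts (Subread 1.6.2). No source used here gives the annotation release, strand setting or treatment of multi-mapping reads. The table held 5 columns without values, which were not used.

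Low genes were removed by filterByExpr in edgeR 4.0.16 under R 4.3.3, and the rest scaled by TMM and tested by the quasi-likelihood F test over all 18751 kept genes, without covariates. A gene was called at a Benjamini-Hochberg adjusted p under 0.05. This replaced the likelihood ratio test named in the series design text. Log2 fold changes are PANC1OR minus PANC1, with the SE from the F statistic. Levels are CPM, and RPKM from the union of exons in GENCODE release 44, which held 18638 of the tested identifiers. Since each line gave 3 cultures, a p-value reflects only variation among cultures.

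The core genes, lists and alternatives were chosen with earlier results of these data known. Named were all core genes, up to 4 called genes per list with the smallest p and a mean of at least 1 CPM, the highest gene per length, and genes completing small counts. Some genes that this rule names are not reported here. Alternatives were DESeq2 1.42.0 (its size factors, and its Wald test), the likelihood ratio test, no filter, offsets for each library's GC trend, the replicate number as a block, and leaving out libraries. Of the same-numbered pairs, replicates 1 deviated together (r = 0.60 over 13765 genes) and replicates 2 and 3 did not (-0.53 and -0.30), while PANC1 replicate 2 and PANC1OR replicate 3 did (0.59), so the numbers were not taken to pair cultures. PANC1 replicate 1 also deviated with PANC1OR replicate 2 (0.50). Deviations were taken from the mean of each line's 3 libraries, so these coefficients depend on one another. No replicate pair agreed within sampling noise, the closest pair having a chi-square 3.99 times its degrees of freedom.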

Additional observations from a re-analysis of the deposited data

How the results depend on the processing

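The calls of SRGN and SPOCK1 as higher and of SDC2, GPC4 and GPC6 as lower were made in all 14 alternative fits as well. GPC1 and HSPG2 depended on the fit: 4 core genes (with GPC1) were called lower by the likelihood ratio test and without a filter, 5 with GC offsets (with or without the replicate block) and without PANC1OR replicate 3, and 6 (then also SDC1) when PANC1 replicate 2 and PANC1OR replicate 3 were both left out, where SDC4 was called higher. Leaving out 1 library at a time gave 3 to 5 core genes called lower and 2 higher. The share called over all tested genes moved too, from 17.8% with 6 libraries. It was 20.5% by the likelihood ratio test, 11.4% without a filter, 39.9% with GC offsets and 34.7% with offsets and the block. Without PANC1OR replicate 3 it was 44.1%, and with both libraries left out 58.5%. Nothing is therefore read from the further calls of GPC1, HSPG2, SDC1 and SDC4. Of 126 alternative log2 fold changes of core genes, 2 moved by more than the spread between replicates: GPC6 stood at -6.31 with 6 libraries, at -8.96 without PANC1OR replicate 3, which held its 2 resistant reads, and at -9.25 without both libraries. That count does not show that the other values held steady. Without PANC1OR replicate 3, GPC1 went from -1.11 to -1.89, HSPG2 from -0.51 to -1.25 and SDC1 from 0.13 to -0.34, and none of these was counted.

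Pathway genes called higher numbered 18, and 26 with GC offsets, 25 with GC offsets and the replicate block, and 33 with both libraries left out (12 to 24 leaving out 1 library). Those called lower numbered 17, and 32 with GC offsets, 30 with GC offsets and the replicate block, and 40 with both left out (10 to 36 leaving out 1 library). Over all genes 1939 were called higher, and 3422 with GC offsets, 2994 with offsets and the block, and 5664 with both left out (1103 to 4340 leaving out 1 library). Those called lower numbered 1406, and 922 with the replicate block, 4069 with GC offsets, 3514 with offsets and the block, and 5758 with both left out (718 to 4323 leaving out 1 library). The replicate block changed no call of a core gene, and gave 13 higher and 13 lower pathway genes. The cause of these differences was not tested. With levels per length of the longest transcript, GPC1 read 26.9 and 12.5 RPKM instead of 15.4 and 7.14. Depth limits VCAN, GPC6 and SRGN, where a line had 2 to 7 reads in all.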
